A study of Homo sapiens with 8 samples.

Results

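The centromeric arrays of the acrocentric chromosomes 13, 14, 21 and 22 were described by the CENP-B ChIP-seq coverage of U2OS cells, an established human osteosarcoma line. Their members were the windows of 1 kb, counted from the first base of each chromosome, that held at least 1 covered base in control or in ERCC6L2-/- cells. There were 5784 of them among 35604 such windows on all sequences, with 1528 on chromosome 13, 1089 on chromosome 21, 1580 on chromosome 14 and 1587 on chromosome 22. The control group was wild-type U2OS and the other group was U2OS in which ERCC6L2 had been disrupted with CRISPR/Cas9 in lines grown from single cells. The labels do not say which knockout line was used. Neither group carried a drug treatment in its labels. Both were cross-linked and digested with micrococcal nuclease before immunoprecipitation, and 3 immunoprecipitates were combined into 1 value per base and group, so no difference below has a replicate error or a test. The depth of the libraries is unknown. The deposited coverage summed to 4419499392 over all sequences in control and to 2036958318 in ERCC6L2-/- cells, and the 4 chromosomes held 8.51% and 5.81% of these sums.

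Human centromeres are built of alpha-satellite DNA, in which blocks of slightly different monomers are repeated as units called higher-order repeats. CENP-B is a DNA-binding protein that recognises the CENP-B box, a short motif present in some of these monomers. Chromosomes 13 and 21 are known to share one family of higher-order repeats and chromosomes 14 and 22 another, which makes their arrays hard to tell apart by short reads. ERCC6L2 belongs to the SNF2 family of ATPases.

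The reference did not bear out a division of these chromosomes into pairs with different arrays. In GRCh38, all of the coverage on chromosomes 13, 14 and 21 and all but 8571 control bases on chromosome 22 fell into 1 stretch of 1769075 bases that the 4 chromosomes carry base for base, with 0 differences from chromosome 14 on any of them. It lies at chr13:16282174-18051248, chr21:11146734-12915808, chr14:16404449-18173523 and chr22:13285244-15054318. Every word of 50 or of 150 bases in it therefore occurs on the partner chromosome, but also on the chromosomes of the other pair. On all 4 chromosomes the stretch holds an array of 1134211 bases. Among long shifts, of several monomers, its bases recur most often at 1364 bases, close to 8 monomers of 171 bases. A short segment between 4 gaps in the assembly divides it from a second array of 632586 bases. There the long shift with most recurrence is 1870 bases, close to 11 monomers. At these shifts 54.0% and 44.9% of bases were the same, against 61.9% and 49.3% at a shift of 171 bases. The long shifts are taken as the repeat units. These are the unit lengths known for the chromosome 14 and 22 family and for the chromosome 13 and 21 family, and they are called the 8-monomer and the 11-monomer array here. They share 1.91% and 1.07% of their 50-base words with each other. On other assembled chromosomes, 7.17% of the 50-base words and 0.0337% of the 150-base words of the stretch were found. From the sequence alone, a read inside this stretch could have come from any of the 4 chromosomes, and how the authors placed such reads is not given in the sources used here. The chromosome named with a value below is therefore where the reads were placed.

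The sequences that carry the comparison are the boxes and the most covered stretches. The motif searched was TTCGNNNNANNCGGG on both strands, which holds the 9 fixed letters of the box. The shared stretch has 4233 matches, all on the strand given by the reference, with 2693 in the 8-monomer array (2.37 per kb) and 1538 in the 11-monomer array (2.43 per kb). The commonest distances between neighbouring boxes were 342 bases in the 8-monomer array and 341 bases in the 11-monomer array, the length of a pair of monomers. With 1 base on each side, the commonest form of the box in each array follows, with the searched motif in capitals. The first made up 93.4% of the boxes of the 8-monomer array and 36.9% of those of the 11-monomer array. The second made up 59.8% of the boxes of the 11-monomer array and was found once in the other. They differ by A12G, counted from 1 at the left end of the 17 bases.
box of both arrays: tTTCGTTGGAAACGGGa
box of the 11-monomer array: tTTCGTTGGAAGCGGGa

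In each array, and in the region of chromosome 22 outside the shared stretch, the 300 bases with the highest control coverage in the most covered window are given in the orientation of GRCh38. Capitals mark the site most like the CENP-B box on either strand. The first lies at chr21:12035001-12035300 and its site matches 9 of the 9 fixed letters. The second lies at chr21:12812676-12812975 and its best site matches 7. The third lies at chr22:15957488-15957787 and its site matches 9 on the opposite strand. The fourth, at chr14:17525695-17525994, comes from the most covered window of the 8-monomer array that had no ERCC6L2-/- coverage, and its best site matches 6.
8-monomer array, highest: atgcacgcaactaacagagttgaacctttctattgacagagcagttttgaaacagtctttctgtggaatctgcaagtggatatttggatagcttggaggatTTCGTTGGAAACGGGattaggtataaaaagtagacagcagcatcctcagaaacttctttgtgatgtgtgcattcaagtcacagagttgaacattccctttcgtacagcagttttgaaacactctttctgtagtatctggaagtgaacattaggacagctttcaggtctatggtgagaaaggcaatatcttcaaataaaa
11-monomer array, highest: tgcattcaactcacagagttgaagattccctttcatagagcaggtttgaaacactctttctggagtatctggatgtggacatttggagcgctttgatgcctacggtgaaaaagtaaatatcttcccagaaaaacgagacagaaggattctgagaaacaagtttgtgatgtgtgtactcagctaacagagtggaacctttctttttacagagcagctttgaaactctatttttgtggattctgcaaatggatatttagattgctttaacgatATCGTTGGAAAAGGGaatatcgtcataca
chromosome 22 region, highest: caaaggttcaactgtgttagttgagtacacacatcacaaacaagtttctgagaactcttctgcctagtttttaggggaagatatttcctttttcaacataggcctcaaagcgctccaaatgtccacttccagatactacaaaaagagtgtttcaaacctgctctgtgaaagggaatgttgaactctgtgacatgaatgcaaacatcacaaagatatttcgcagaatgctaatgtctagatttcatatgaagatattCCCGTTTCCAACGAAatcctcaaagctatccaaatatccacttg
8-monomer array, highest without ERCC6L2-/- coverage: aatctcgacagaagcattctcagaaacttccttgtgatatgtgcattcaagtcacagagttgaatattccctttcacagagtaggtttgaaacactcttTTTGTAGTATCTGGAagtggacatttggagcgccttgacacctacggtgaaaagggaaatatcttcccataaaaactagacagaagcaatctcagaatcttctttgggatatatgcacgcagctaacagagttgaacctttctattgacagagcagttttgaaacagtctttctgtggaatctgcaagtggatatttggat

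The copies of these stretches had nearly the same depth on every chromosome. Over the 300 bases from the 8-monomer array, control coverage on chromosomes 13, 21, 14 and 22 averaged 1468, 1484, 1456 and 1416 reads, and ERCC6L2-/- coverage 1124, 1087, 1099 and 1080 reads. Over those from the 11-monomer array the control values were 1491, 1500, 1464 and 1460 reads and the ERCC6L2-/- values 1276, 1292, 1285 and 1295 reads. The fourth stretch had 491, 473, 475 and 496 reads in control and none in ERCC6L2-/- cells on any chromosome. The fourth stretch was picked for the highest control depth without ERCC6L2-/- coverage, and it was less deep in control than the other stretches of the arrays. Its depth therefore says nothing of how control depth relates to the loss.

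Both pairs lost most of their covered length. Control coverage extended over 1488579 bases on chromosome 13, 1072170 on chromosome 21, 1559141 on chromosome 14 and 1568255 on chromosome 22. ERCC6L2-/- coverage extended over 511899, 444716, 537125 and 411356 bases. Of the control bases, 32.9% on chromosome 13, 41.3% on chromosome 21, 34.3% on chromosome 14 and 26.1% on chromosome 22 were also covered in ERCC6L2-/- cells. The log2 ratio of covered length, ERCC6L2-/- over control, was -1.42 for chromosomes 13 and 21 and -1.72 for chromosomes 14 and 22. The partners also differed from each other, with -1.54 for chromosome 13 and -1.27 for chromosome 21 in the one pair and -1.54 for chromosome 14 and -1.93 for chromosome 22 in the other.

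Where both groups had coverage, the depth was less different. On chromosomes 13, 21, 14 and 22 the control mean over these bases was 75.9, 79.6, 74.3 and 79.8 reads. The ERCC6L2-/- mean was 61.4, 64.1, 59.7 and 65.9 reads. The log2 ratios ran from -0.31 on chromosomes 21 and 14 to -0.28 on chromosome 22, and the pairs stood at -0.31 and -0.30. The direction of these depth ratios depended on the scale: each group scaled to its own total coverage gave 0.81 and 0.82, since that scaling adds 1.12 to every log2 ratio. Summed coverage, which joins length and depth, was 65.3% lower on chromosomes 13 and 21 and 71.2% lower on chromosomes 14 and 22 on the deposited scale, with log2 ratios of -1.53 and -1.80 that became -0.41 and -0.68 after the scaling.

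By windows, a ratio of mean coverage plus 1 under 0.5 was found in 3860 of the 5784 members, or 66.7%, against 44.6% of all windows of the series. It was 63.0% on chromosomes 13 and 21 and 69.8% on chromosomes 14 and 22. No ERCC6L2-/- coverage at all was found in 3759 members, or 65.0%, against 40.3% of all windows. Of the 2004 members with coverage in both groups, 102 were under 0.5, against 1413 of 18956 such windows on the other 17 assembled chromosomes. A ratio over 2 was found in 21 members, or 0.363%, against 0.424% of all windows, and all of them lay on chromosome 13.

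By where reads were placed, the loss differed between the arrays on each chromosome of both pairs. The unit lengths of the arrays are those known for the families of the pairs. A difference between the arrays therefore cannot be told apart from one between the pairs. In the 8-monomer array, which control covered on 987967, 507002, 989822 and 988842 bases of chromosomes 13, 21, 14 and 22, the share of control bases also covered in ERCC6L2-/- cells was 9.81%, 19.0%, 13.5% and 5.52%. In the 11-monomer array, covered by control on 500612, 565168, 569319 and 570842 bases, it was 78.5%, 61.3%, 70.4% and 62.1%. On each chromosome the 11-monomer array kept more of its length than the 8-monomer array, and the ranges of the arrays over the 4 chromosomes did not overlap. The 4 chromosomes carry the same sequence, over which reads were placed, so they are not 4 separate observations. Chromosome 21, with the highest kept share in the 8-monomer array, also had the shortest control coverage there. Over the 4 chromosomes, the log2 ratio of covered length was -3.18 in the 8-monomer array and -0.53 in the 11-monomer array. Windows with a ratio under 0.5 made up 90.6% of 3489 members in the 8-monomer array and 30.0% of 2278 members in the 11-monomer array, above and below the 44.6% of all windows.

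**Figure D1:**
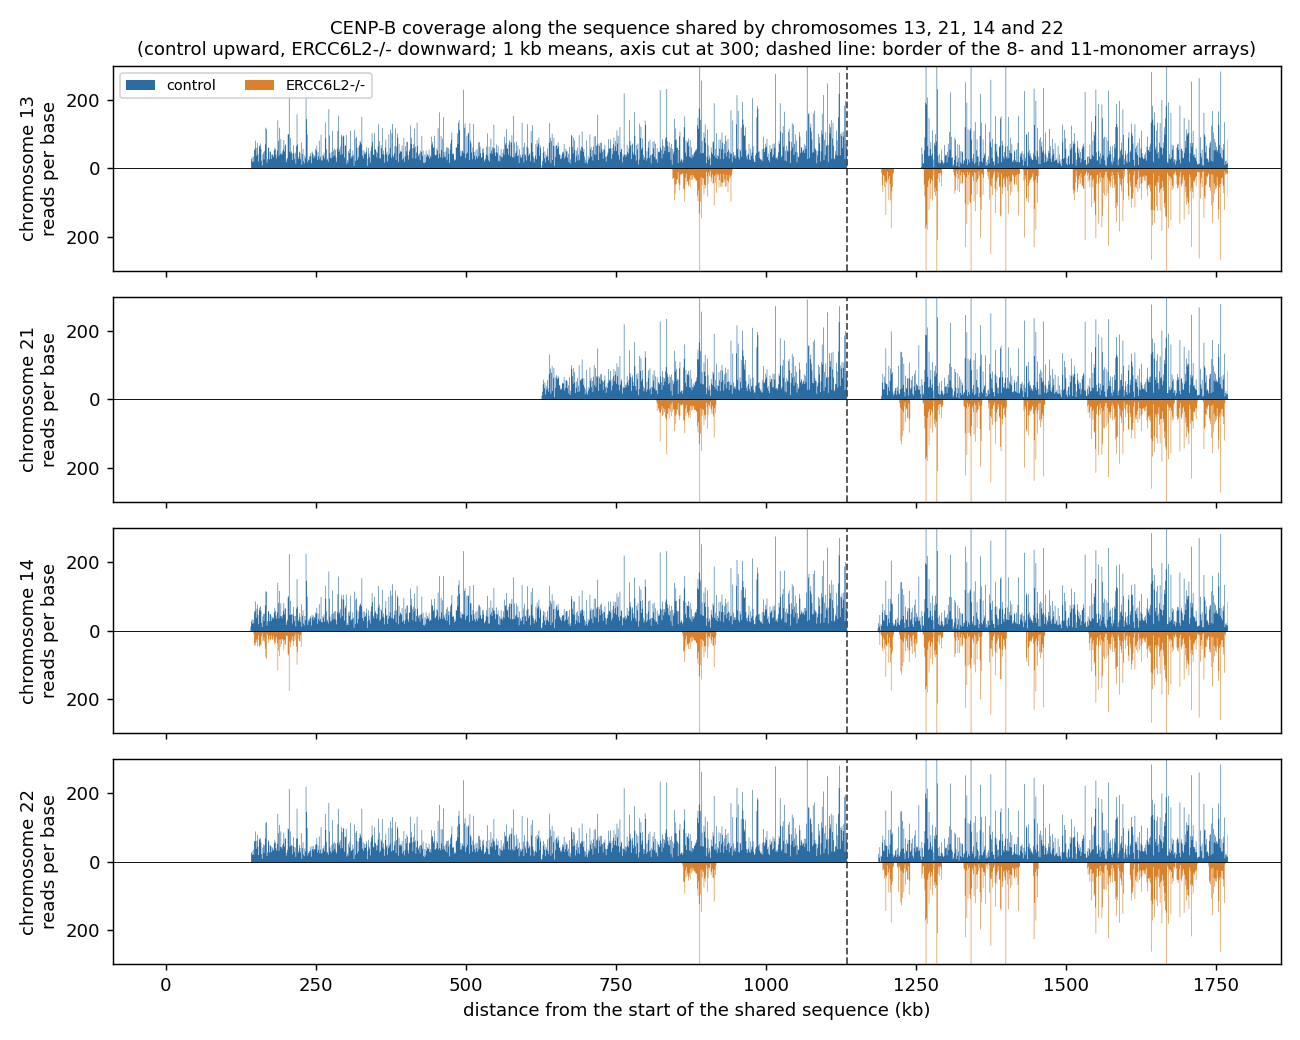
Coverage in reads per base, as means over 1 kb, is plotted against the distance in kb from the start of the shared sequence, with control upward and ERCC6L2-/- downward for each chromosome and the vertical axis cut at 300. Control filled both arrays except their starts on chromosomes 13, 14 and 22 and began at position 625075 on chromosome 21, whereas ERCC6L2-/- coverage formed a few islands in the 8-monomer array left of the dashed line and lay over most of the 11-monomer array right of it.

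The depth of what remained also differed between the arrays. Where control and ERCC6L2-/- cells were both covered, the 8-monomer array averaged 75.6, 77.96, 68.1 and 83.9 reads in control on chromosomes 13, 21, 14 and 22, and 45.4, 46.3, 41.9 and 50.3 reads in ERCC6L2-/- cells. The ERCC6L2-/- mean was 0.60, 0.59, 0.62 and 0.60 of the control mean. In the 11-monomer array the control means were 75.9, 80.02, 76.4 and 79.2 reads and the ERCC6L2-/- means 65.4, 69.0, 65.7 and 68.3 reads in the same order, and the ratio was 0.86 on all 4 chromosomes. The log2 ratio over all copies was -0.73 in the 8-monomer array and -0.22 in the 11-monomer array on the deposited scale and 0.39 and 0.90 after scaling to total coverage, and the distance between the arrays is the same on either scale. For summed coverage the arrays parted in sign: -3.71 and -0.56 as deposited, but -2.60 and 0.56 after the scaling. The 4 copies of a sequence are not replicates, and their close values say nothing of the spread between cultures.

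The depth ratio also differed between windows of like control depth. Among windows of the shared stretch covered over at least 90% of their bases in both groups on at least 1 chromosome, 197 lay in the 8-monomer array and 454 in the 11-monomer array. In the former the median ratio was 0.57, with 10% of windows under 0.49 and 10% over 0.71. In the latter it was 0.84, with 10% of windows under 0.69 and 10% over 0.93. When the windows of each array were split into 3 classes by control depth, the middle classes had median depths of 55.9 and 54.3 reads in control and median ratios of 0.57 in the 8-monomer and 0.85 in the 11-monomer array. From the class of lowest to that of highest depth the ratio went from 0.55 to 0.61 and from 0.77 to 0.88. No window of the 8-monomer array and 3 of the 11-monomer array had more coverage in ERCC6L2-/- cells than in control on the deposited scale.

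**Figure D2:**
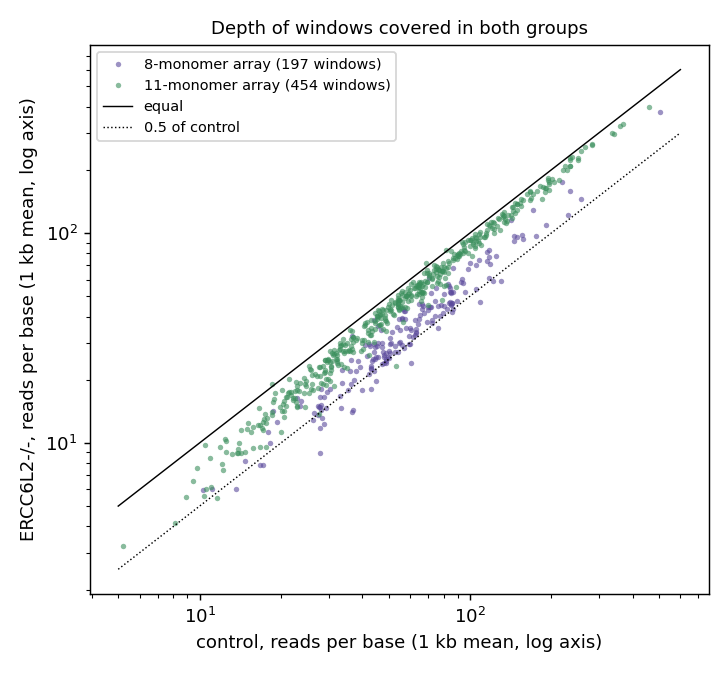
Mean ERCC6L2-/- coverage is plotted against mean control coverage in reads per base, on log axes, for each 1 kb window of the shared sequence covered in both groups, with lines at equality and at 0.5 of control. The windows of the 8-monomer array lie lower, around a median ratio of 0.57, than those of the 11-monomer array, around 0.84.

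Windows that lost coverage were compared with those that kept it. In the 8-monomer array, the windows that control covered on at least 3 chromosomes had a median control depth of 53.7 reads where ERCC6L2-/- cells had no coverage on any chromosome (777 windows) and 52.0 reads where they had coverage on some but not fully on all 4 (158 windows), against 63.4 reads where at least 90% of the window was covered on all 4 (49 windows). In the 11-monomer array the medians were 38.1 reads (71 windows), 40.1 reads (259 windows) and 66.6 reads (211 windows). In both arrays the windows covered on all 4 chromosomes had the highest control median. The partly covered windows of the 8-monomer array had a lower control median than those without ERCC6L2-/- coverage. The 777 windows without coverage in the 8-monomer array had a higher control median than the 71 of the 11-monomer array. How control depth relates to the loss was not tested. In the same order of classes, boxes per window were 2.38, 2.34 and 2.43 in the 8-monomer array and 2.45, 2.43 and 2.48 in the 11-monomer array. GC content had medians between 38.6% and 38.9% in all these classes.

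Since the 4 chromosomes carry the same sequence, each base could be read 4 times. Where control covered at least 90% of a window on all 4 (963 windows), the mean depth was 70.3 reads on each chromosome, the median coefficient of variation between the copies was 3.33% and the highest was 12.7%. For ERCC6L2-/- cells the same held in 260 windows, with means of 74.7, 74.9, 75.0 and 74.8 reads on chromosomes 13, 21, 14 and 22 and a median coefficient of variation of 3.38%. The windows of the groups are not the same, so these means do not compare their depth. Over bases covered on all 4 copies in both groups, control and ERCC6L2-/- means were 86.3 and 52.2 reads in the 8-monomer array. In the 11-monomer array they were 88.6 and 76.6 reads. Correlations between the copies across these windows lay between 0.998 and 0.999, which describes windows of the same sequence and not independent samples.

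The calls were less alike than the depths. In control, 991636 bases of the shared stretch were covered on all 4 chromosomes, 556702 on 3, 17156 on 2 and 8612 on 1. In ERCC6L2-/- cells these numbers were 322163, 75299, 98075 and 194397 bases. Of the 1574106 bases that control covered on any chromosome, 56.2% had no ERCC6L2-/- coverage on any of them, 79.5% in the 8-monomer array and 16.4% in the 11-monomer array. Of the bases with any ERCC6L2-/- coverage, 65.0% in the 8-monomer array and 12.8% in the 11-monomer array had it on 1 chromosome only. Coverage in ERCC6L2-/- cells where control had none on any copy came to 354 bases. In the 11-monomer array the ERCC6L2-/- depth averaged 36.3, 42.2, 44.9 and 76.3 reads at bases it covered on 1, 2, 3 and 4 chromosomes, where control averaged 45.4, 50.0, 52.1 and 88.3 reads. It did not rise in this order in the 8-monomer array, with 37.1, 36.1, 2.94 and 52.1 reads against 61.8, 63.7, 6.35 and 86.2 in control, and the class of 3 chromosomes held 1272 bases.

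**Figure D3:**
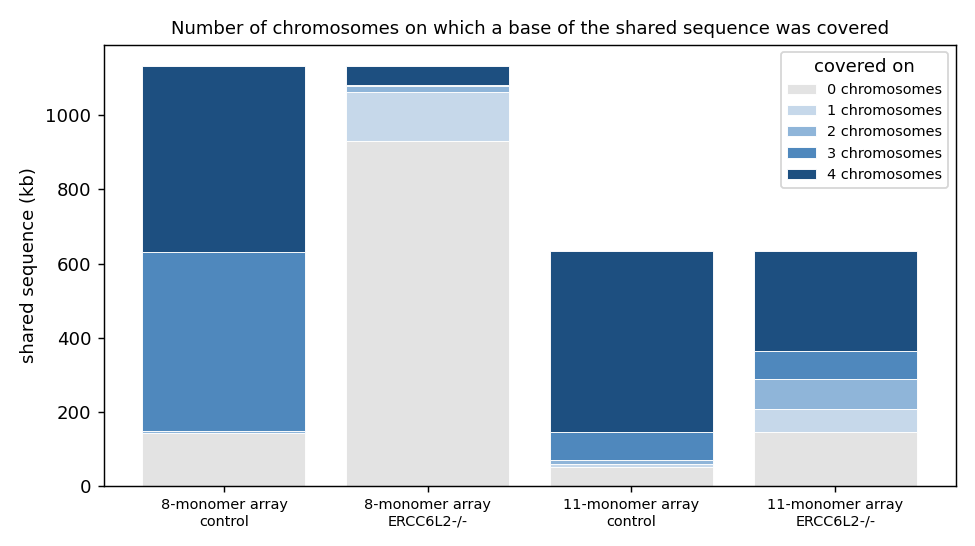
Stacked bars give the length of the shared sequence in kb by the number of chromosomes, 0 to 4, on which a base was covered, for each array and group. In the 8-monomer array the length covered on all 4 chromosomes was 503842 bases in control and 53042 in ERCC6L2-/- cells, against 487794 and 269121 bases in the 11-monomer array.

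The overlap of the covered bases did not follow the pairs in ERCC6L2-/- cells, whereas in control it was highest for chromosomes 14 and 22 and lowest for chromosomes 13 and 21. In ERCC6L2-/- cells, chromosomes 13 and 21 shared 65.4% of the bases covered on either, and chromosomes 14 and 22 shared 63.1%, against 61.6% to 69.0% for the other 4 combinations. In control, chromosomes 14 and 22 shared 98.6%, chromosomes 13 and 21 64.1%, chromosome 13 with 14 and 22 94.4%, and chromosome 21 with 14 and 22 67.8% and 67.9%. The low control values with chromosome 21 came from the start of the 8-monomer array. Over 483813 bases from position 141262 of the shared stretch, at chr21:11287995-11771807, chromosome 21 had no control coverage, whereas 480928 to 481981 of the same bases were covered on the other chromosomes at means of 58.4, 58.2 and 58.3 reads.

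Chromosome 13 had a gap of the same kind at the start of the 11-monomer array. Over chr13:17473431-17539664 control covered none of 66234 bases, while chromosomes 21, 14 and 22 had control coverage on 64050, 63974 and 64332 of them at 55.7, 56.1 and 56.2 reads. The 21 members with ERCC6L2-/- coverage only lay here, in the region chr13:17473335-17493605 with a mean of 55.3 reads. ERCC6L2-/- cells were also covered on 16871, 48987 and 37000 of the 66234 bases on chromosomes 21, 14 and 22.

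In the 8-monomer array, ERCC6L2-/- coverage was confined to 2 islands of the shared stretch. One of 125626 bases, from position 816726, was covered in part on every chromosome: over 97159 bases of chromosome 13 (mean 45.3 reads), 96496 of chromosome 21 (46.2), 54687 of chromosome 14 (50.7) and 54594 of chromosome 22 (50.3). Control covered 124933 to 125165 bases of it on each, at 73.3 to 73.5 reads. It holds 295 boxes and the most covered stretch of the array printed above. The other, of 80455 bases from position 145173, had coverage on chromosome 14 only, at chr14:16549621-16630075, with 35.7 reads against 56.6 in control. The same sequence had 57.1 and 56.6 reads in control on chromosomes 13 and 22 and no ERCC6L2-/- coverage there. Between and around the islands ran the longest series of members without ERCC6L2-/- coverage: 701 windows on chromosome 13 (chr13:16423001-17124000), 218 on chromosome 21 (chr21:12063001-12281000), 633 on chromosome 14 (chr14:16631001-17264000) and 719 on chromosome 22 (chr22:13426001-14145000). Their control means were 58.4, 77.4, 58.9 and 58.4 reads.

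Control regions were long and those of ERCC6L2-/- cells short. Joined over gaps of up to 1 kb, control coverage on chromosomes 13, 21, 14 and 22 made 2, 2, 2 and 3 regions, of which the longest were chr13:16423435-17416132, chr21:12337991-12915806, chr14:16544753-17538449 and chr22:13426485-14419251. ERCC6L2-/- coverage made 8, 9, 9 and 12 regions. The longest all lay in the 11-monomer array, at chr13:17882747-18051246 (168500 bases), chr21:12680791-12826213 (145423 bases), chr14:17940958-18168928 (227971 bases) and chr22:14890603-14966043 (75441 bases). Their mean depths were 66.9, 68.0, 66.8 and 72.8 reads. Of the 76 ends of ERCC6L2-/- regions, 46 (60.5%) lay within 1000 bases of an end of the same kind on another chromosome of the shared sequence. For control regions in the shared sequence it was 13 of 16 ends (81.25%). The median distance to the nearest such end was 576 bases in ERCC6L2-/- cells and 20 bases in control.

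Read in 20 equal parts from the first to the last control base of the shared stretch, the first 10 had a median of 0% of control bases kept on every chromosome, and the last 10 had medians of 75.8% on chromosome 13, 58.4% on chromosome 21, 59.8% on chromosome 14 and 59.6% on chromosome 22. Chromosome 21, whose control coverage began late, reached its highest share, 97.4%, in the fifth of them, which is the island shared by all chromosomes. Chromosomes 13, 14 and 22 reached theirs, between 95.6% and 97.2%, in the last or the one before it, at the end of the 11-monomer array.

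Coverage at the boxes differed between the arrays in the same direction. The middle of the box was covered on at least 1 chromosome at 2359 of the 2693 boxes of the 8-monomer array in control and at 486 in ERCC6L2-/- cells, or 87.6% and 18.0%. In the 11-monomer array it was covered at 1423 and 1210 of 1538 boxes, or 92.5% and 78.7%. The box form found in both arrays was followed separately in each. Counting each chromosome, 11.1% of its control-covered sites in the 8-monomer array and 70.0% of those in the 11-monomer array were also covered in ERCC6L2-/- cells. At sites covered in both groups it had 76.1 and 46.5 reads in the 8-monomer array and 51.8 and 46.3 reads in the 11-monomer array, control first. The form specific to the 11-monomer array was kept at 69.7% of its sites, with 70.4 and 60.8 reads. The same 17 bases thus had different values in the 2 arrays, and the 2 commonest forms within the 11-monomer array had like kept shares. Covered regions spanned many boxes, so the form of the box was not tested apart from its place. The rarer forms had 29 sites or fewer in an array and are not described singly. The next commonest forms of the 11-monomer array, with 7 boxes or fewer each, were kept at 26.7% to 69.2%.

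The box was not where the nuclease-digested chromatin gave the most reads. Within 150 bases of boxes covered in both groups, control coverage in the 11-monomer array was lowest 11 bases after the middle of the box, at 53.1 reads, and highest 140 bases after it, at 98.3 reads. ERCC6L2-/- coverage had its lowest and highest points at the same distances, at 46.9 and 85.0 reads. In the 8-monomer array the box itself had 72.6 and 44.2 reads, and the maximum of both groups, 96.8 and 60.1 reads, stood 72 bases downstream. Its minimum was not at the box but at the upstream edge of the range, where control had 59.5 and ERCC6L2-/- cells 35.8 reads.

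**Figure D4:**
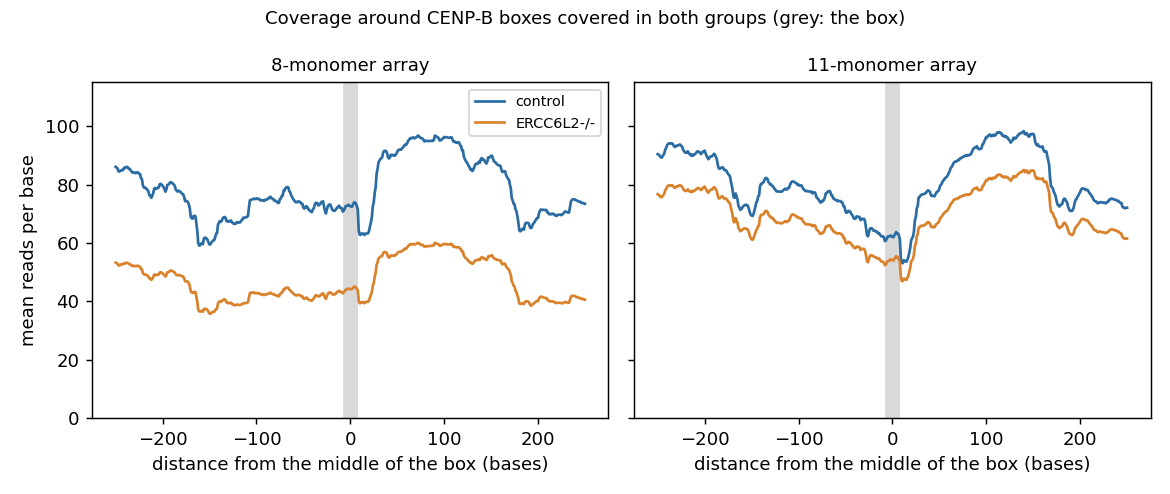
Mean reads per base are plotted against the distance in bases from the middle of the box, from 250 before to 250 after it, for 922 sites of the 8-monomer and 3766 sites of the 11-monomer array covered in both groups on the same chromosome. The ERCC6L2-/- line runs below control in both panels with its high and low points at like distances, and the distance between the lines is larger in the 8-monomer array.

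Boxes alone did not mark coverage. Before position 140305 of the shared stretch, 333 boxes at 2.37 per kb had no coverage in either group on any chromosome. At these files' values it cannot be said whether reads there were absent or the sites were left out when peaks were filtered.

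The 1 region outside the shared stretch, chr22:15953132-15961779, was covered in control only. It had a mean of 135 reads, a median of 31 reads and a highest value of 4186 reads over 8648 bases, and 49.05% of its summed coverage lay within 1 kb. Its window chr22:15957001-15958000 was the most covered member of chromosome 22, with 559 reads in control. It holds 8 boxes and shares 0.384% of its 50-base words with the arrays. All 9 of its windows had no ERCC6L2-/- coverage. The most covered member of each of the other chromosomes lay in the shared stretch. They were chr13:17170001-17171000 with 512 reads in control and 388 in ERCC6L2-/- cells, chr21:12812001-12813000 with 561 and 480 reads, and chr14:17292001-17293000 with 484 and 359 reads. No member window overlapped a gene of GENCODE release 44. The nearest gene to the shared stretch was 83868 bases away on chromosome 21 and 219537 bases away on chromosome 22, and the region outside it lay 37332 bases from the nearest gene.

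Among the 21 assembled chromosomes with coverage, chromosomes 22, 13 and 14 stood low for covered length, chromosome 21 stood in the middle, and all 4 stood high for depth. The other 17 had log2 ratios of covered length from -5.51 on chromosome 18 to -0.0077 on chromosome 11 with a median of -0.78, and counted from the lowest, chromosomes 22, 13, 14 and 21 ranked 3, 5, 6 and 11. Their log2 ratios of depth over bases covered in both groups ranged from -1.64 on chromosome 3 to -0.24 on chromosome 8, with a median of -0.70, and chromosomes 14, 21, 13 and 22 ranked 16, 17, 18 and 19. Taken alone, the 8-monomer array at -0.73 lay near that median and the 11-monomer array at -0.22 lay above all 17, though close to chromosome 8. The arrays are parts chosen after the data were seen, whereas the 17 chromosomes were taken whole. The depth ratios are relative to each other: the scaling to total coverage shifts all of them alike. Chromosomes 3, 15 and 18, among the other 17, held only 21, 17 and 291 windows. They count alike with the longer arrays in these ranges, medians and ranks.

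**Figure D5:**
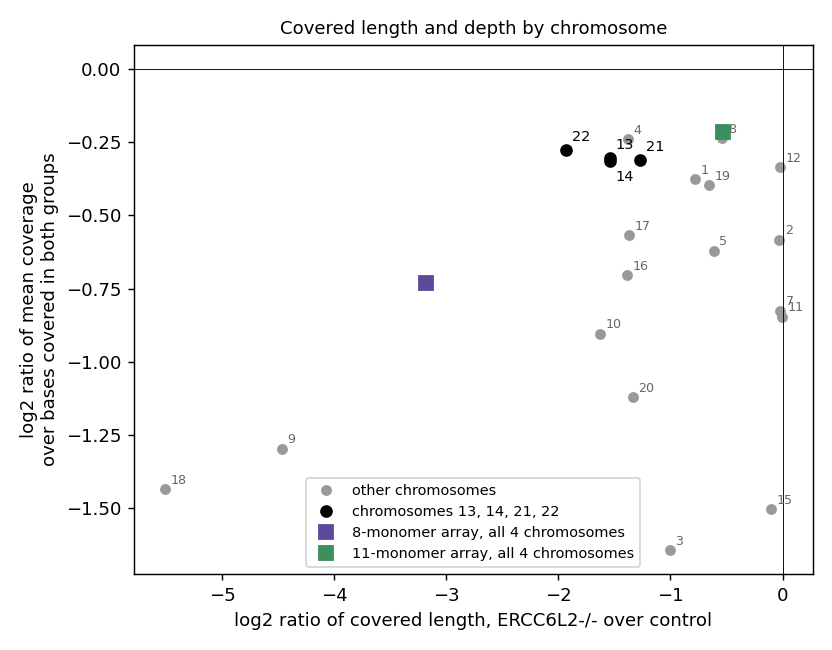
The log2 ratio of mean depth where both groups had coverage is plotted against the log2 ratio of covered length, ERCC6L2-/- over control on the deposited scale, for each of the 21 chromosomes (circles) and for the 2 arrays over chromosomes 13, 14, 21 and 22 (squares). Chromosomes 13, 14, 21 and 22 sit between -1.93 and -1.27 in length, while their 8-monomer array lies at -3.18 and -0.73 and their 11-monomer array at -0.53 and -0.22.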

How the data were processed

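CENP-B ChIP-seq was made from U2OS cells of both genotypes, each with 3 immunoprecipitates and an input. The authors trimmed reads (Trim Galore, after FastQC), aligned them (Bowtie2), called peaks (MACS2), filtered these by FDR and merged them over replicates (MSPC). They deposited the coverage signal of the merged peaks, 1 whole number of reads per base and group, described in a figure legend as an average of the triplicates. Versions, scaling, duplicates, read length and placement of reads with several matches are not given in the sources used here. Inputs were not used. Positions were read against GRCh38 with GENCODE release 44.

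Intervals were expanded to bases (Python 3.11.15, numpy 2.4.6, pandas 2.3.3), unlisted bases set to 0. Ratios are ERCC6L2-/- over control, and window ratios carry a pseudocount of 1. Regions were joined over gaps of up to 1 kb. The shared stretch was found by comparing the reference sequences. Repeat units are the shifts with the largest share of recurring bases among long shifts, of several monomers, only. Functions were tested on simulated data. No test was possible with 1 value per group. Regions named are, per chromosome, the longest of each kind and the most covered window; values of the arrays were added after the data were seen. Members and lists were chosen with earlier results of these data known. Alternatives were scaling, minimum depth, a cap, pseudocount, window and chromosome.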

Additional observations from a re-analysis of the deposited data

How the results depend on the processing

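No paired analysis was possible because each group has 1 pooled value per base, and for the same reason no replicate could be left out. The direction of every log2 ratio of covered length stayed below 0 under each alternative run. With a minimum of 10 and of 50 reads it was -1.67 and -1.66 for chromosomes 13 and 21, -2.00 and -1.95 for chromosomes 14 and 22, -3.46 and -3.75 for the 8-monomer array and -0.65 and -0.58 for the 11-monomer array. Summed coverage in the same order was -1.54 and -1.50, -1.81 and -1.75, -3.74 and -3.84, and -0.56 and -0.54, and mean coverage over bases covered in both groups was -0.29 and -0.24, -0.28 and -0.23, -0.71 and -0.64, and -0.20 and -0.17. The percent of windows with a ratio under 0.5, at a minimum of 50 reads, was 68.2, 73.1, 94.3 and 33.4. Scaling each group to its total coverage turned mean coverage to 0.81, 0.82, 0.39 and 0.90, moved summed coverage to -0.41, -0.68, -2.60 and, with a change of sign, 0.56, and gave 88.8% of windows in the 8-monomer array. A cap at 760 reads, the 99th percentile of covered bases, gave -1.54, -1.81, -3.74 and -0.56 for summed and -0.30, -0.29, -0.72 and -0.21 for mean coverage. For the pairs, a pseudocount of 10 gave 60.9% and 68.0% of windows and windows of 10 kb gave 61.0% and 67.9%. Chromosomes 13 and 21 alone had -1.54 and -1.27 (length), -1.65 and -1.37 (sum), -0.30 and -0.31 (mean) and 65.8% and 59.1% of windows, and chromosomes 14 and 22 alone -1.54 and -1.93, -1.67 and -1.93, -0.31 and -0.28, and 66.1% and 73.4%. Windows with 10% of their 50-base words on no other chromosome were the 9 of the chromosome 22 region, all (100%) under 0.5, so the other results had no value there. The remaining 14 of 80 alternative values, percents of windows or of words, were unchanged or stayed within a 95% binomial interval. That interval takes windows as independent, which neighbouring windows and copies of the same sequence are not. It therefore measures no replicate error. The values of the arrays were chosen after seeing the data. Since only bases inside called peaks have values, a base without coverage may still have had reads, and a lower depth and a site left out of a call cannot be told apart.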
